A study of Mus musculus with 15 samples.

Results

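The mitosis and G2/M genes are 40 genes whose products bring a cell into mitosis, build the spindle, attach and separate the chromosomes and divide the cell, and they were taken by name from a list of genes of this function. The rule itself uses no measured value, but the list was drawn up with earlier results of these data known. Each of the 40 names matched 1 Ensembl gene among the 43629 genes of the count table, and all 40 passed the filter on low values in each comparison. They were placed in 8 groups by role: 7 entry kinases and cyclins, 2 transcription factors, 4 proteins of the chromosomal passenger complex, 10 of the kinetochore and the spindle checkpoint, 7 spindle motors and microtubule proteins, 4 of cytokinesis, 4 of the anaphase ubiquitin ligase and separase, and 2 markers of chromatin and proliferation.

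RNA sequencing was performed on mouse intestinal organoids, which are epithelial cultures grown from crypts of the proximal small intestine in Matrigel, on a C57B6/129 background. WT comprised 5 libraries in ENR media (EGF, Noggin and RSPO1), of which 4 were APC flox/flox (lines 1, 2, 5 and 6 by their titles) and the fifth was dox naive, that is, without doxycycline to turn on its inducible Cas9. The Apc group held 4 libraries of Apc delta/delta organoids, titled by the same 4 line numbers, in EN media without RSPO1. P-Rspo3 comprised 4 libraries labelled 15d, 4d, M and F, also in EN media, from dox-treated polyclonal cultures that carry the Ptprk-Rspo3 inversion. The mutant groups differed from WT in medium as well as genotype, so these cannot be told apart, and the P-Rspo3 and dox-naive cultures come from other lines than the flox lines. The labels do not say which libraries came from separate animals, so p-values measure the spread between these cultures. The titles and genotypes of 2 further libraries conflict, and these entered no group.

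As background, a dividing cell makes most of these transcripts late in its cycle: Cdk1 bound to cyclin B starts mitosis, kinetochores tie chromosomes to spindle microtubules under the watch of the checkpoint kinases, and the anaphase-promoting complex with Cdc20 then destroys cyclin B and securin so that separase can part the sister chromatids. In the small intestine, division is confined to the crypt, where Wnt signals amplified by R-spondins maintain Lgr5-positive stem cells, and cells that leave the crypt stop dividing as they differentiate. Apc is part of the complex that destroys beta-catenin, so its loss turns the Wnt pathway on without ligand. In bulk RNA, more dividing cells and more mitotic RNA per dividing cell cannot be told apart.

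Libraries held 28902729 to 35528495 counts, and no member had fewer than 333 counts in any of the 13 grouped libraries. Counting error was not separated from the spread between cultures. Levels are given as CPM, counts scaled to a common library size with TMM normalization, and comparisons between genes use FPKM, which is per length. Per-library values follow the order replicates 1, 2, 5, 6 and naive for WT, 1, 2, 5 and 6 for Apc, and 15d, 4d, M and F for P-Rspo3. Rspo3, the gene placed under Ptprk control by the inversion, had 33.5, 18.9, 35.1 and 32.2 CPM in P-Rspo3, against at most 1 count in any WT library and 0.187 to 1.65 CPM in Apc. Counts summed over the whole Apc gene were higher in Apc (257 to 282 CPM) than in WT (146 to 201 CPM), and such sums are no check of the deletion of a floxed segment.

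The labelled tissue was matched by its markers. Epithelial markers (Epcam, Cdh1, Krt8, Krt18 and Krt19) summed to 4772 to 5602 CPM in WT, 4224 to 5210 CPM in Apc and 4795 to 5601 CPM in P-Rspo3, and Krt8 was at 1536 ± 151 CPM in WT (SD, n = 5). Lum of the 7 fibroblast markers and Kdr of the 4 endothelial markers had 0 counts in each grouped library. The fibroblast markers summed to 0.65 to 1.55 CPM in WT, 1.47 to 2.19 CPM in Apc and 1.94 to 4.82 CPM in P-Rspo3, where replicate 15d was the highest and every library lay above WT. Most of the sum was Pdgfrb in WT (0.930 ± 0.314 CPM) and P-Rspo3 (2.56 ± 1.31 CPM; 1.47 ± 0.35 against WT, adjusted p = 0.134), and Pdgfra in Apc. In Apc against WT, Pdgfra rose (4.5 ± 0.44, adjusted p = 7.73e-06) and Pdgfrb fell (−3.63 ± 0.63, adjusted p = 0.000509), and the collagen genes Col1a1, Col1a2 and Col3a1 and Dcn averaged at most 0.161 CPM in any group. The 5 immune markers summed to 1.03 to 1.98 CPM in WT and 4.01 to 10.5 CPM in Apc, where Cd68 made up nearly all of the sum (6.36 ± 2.88 CPM in Apc, 1.07 ± 0.281 CPM in WT). Endothelial markers summed to 1.03 to 1.80 CPM in WT and 11.8 to 12.6 CPM in Apc, through Cdh5 (0 counts in WT, up to 372 counts in an Apc library) and Tek, whereas Pecam1 fell from 1.02 ± 0.247 CPM to 0.129 ± 0.0782 CPM (−2.95 ± 0.37, adjusted p = 5.44e-05). The part of these cells or transcripts in the results below was not tested.

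In WT organoids the 40 genes spanned a wide range of levels. Cdk1, the kinase that triggers mitotic entry, had the highest level at 101 ± 8.48 FPKM (SD, n = 5), followed by Top2a, the topoisomerase that untangles chromosomes (90.5 ± 10.2 FPKM), Ube2c, the ubiquitin-conjugating enzyme of the anaphase-promoting complex (90.4 ± 13.3 FPKM), and Ccna2, cyclin A2 (58.6 ± 6.68 FPKM). Top2a and Ube2c differed by less than their spread, and Ccna2 lay below them. At the lower end stood Espl1, which encodes separase (5.01 ± 0.668 FPKM), Cdc25c, a phosphatase that activates Cdk1 (5.43 ± 0.612 FPKM), and Cenpe, a kinetochore motor (5.45 ± 0.872 FPKM), which were also within each other's spread. Replicates of 1 gene varied little: the coefficient of variation had a median over the 40 genes of 10.7% in WT, 8.59% in Apc and 14.3% in P-Rspo3.

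Apc organoids had more RNA of nearly all 40 genes than WT organoids. At a Benjamini-Hochberg adjusted p under 0.05 in edgeR's quasi-likelihood test, 38 of 40 rose in Apc, against 30.0% of the 16749 genes tested, and 0 fell, against 29.0%. The changes were moderate: the median log2 fold change was 0.61 (1.53-fold), against 0.00 over all genes tested. Only Ect2 and Cenpf also exceeded a log2 fold change of 1, a threshold passed upwards by 12.2% of all genes and downwards by 14.1%. For 35 of the 40 genes each Apc library lay above each WT library, against 27.4% of all genes, and the 5 whose groups overlapped were Plk1, Birc5, Nuf2, Kif11 and Pttg1. The 2 genes that did not pass were Birc5 and Pttg1. TMM sets the median of all genes near 0. Scaled by total counts alone, that median rose by 0.29 and the members' median to 0.90, since scaling shifts all genes alike. Under total counts 69.6% of the genes that passed were higher in Apc, against 50.8% under TMM, and 12 members exceeded the fold threshold.

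**Figure D1:**
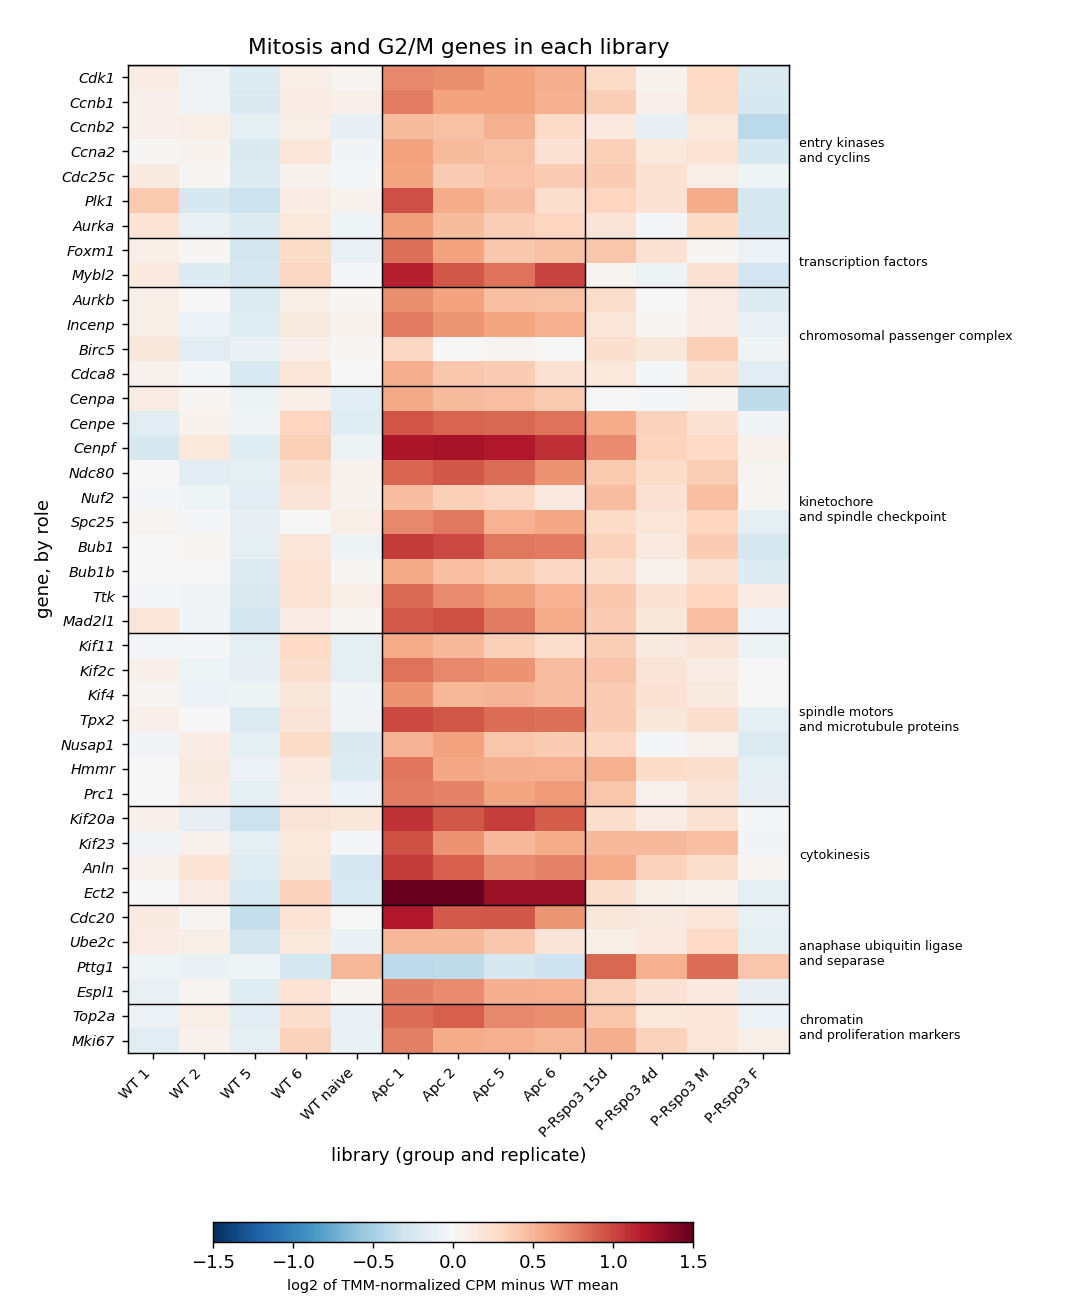
Level of each of the 40 genes (rows, by role) in each of the 13 libraries (columns), as log2 of TMM-normalized CPM minus the mean of the 5 WT libraries. The Apc columns are red in nearly every row and darkest for Ect2 and Cenpf, while the row of Pttg1 is blue in Apc and red in P-Rspo3 and in the dox-naive WT library.

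All 7 entry kinases and cyclins rose in Apc, by a narrow range of log2 fold changes from 0.41 to 0.62. Cdk1 was at 102, 90.9, 82.4, 102 and 97.1 CPM in WT, 156, 153, 144 and 138 CPM in Apc and 115, 98.0, 116 and 81.2 CPM in P-Rspo3. The Apc libraries lay above all others without overlap, and the change against WT was 0.62 ± 0.07, adjusted p = 3.44e-05 (log2, ± SE). Ccnb1, cyclin B1, was at 65.2, 59.4, 53.3, 67.2 and 65.2 CPM in WT, 106, 93.8, 94.1 and 89.8 CPM in Apc and 79.8, 65.5, 75.6 and 52.2 CPM in P-Rspo3, with the same separation (0.61 ± 0.08, adjusted p = 6.55e-05). Ccnb2, cyclin B2, changed least of this group (0.41 ± 0.08, adjusted p = 0.000693), with 78.3, 78.8, 67.5, 79.9 and 68.5 CPM in WT, 104, 101, 108 and 90.5 CPM in Apc and 82.3, 68.5, 83.1 and 56.3 CPM in P-Rspo3. Its lowest Apc library was still above the highest WT library, whereas P-Rspo3 replicate F had the lowest value of all. Ccna2, Cdc25c, Aurka (a kinase of the spindle poles) and Plk1 (polo-like kinase 1) rose as well. Plk1 had the widest spread of them, at 101 ± 20.6 CPM in WT and 149.6 ± 32.4 CPM in Apc (SD, 0.54 ± 0.17, adjusted p = 0.0157), and without Apc replicate 1 its adjusted p was 0.0529.

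Both transcription factors rose. Mybl2 (B-Myb), which binds the MuvB complex to switch on late cell cycle genes, was at 28.0, 22.1, 21.2, 31.3 and 24.7 CPM in WT, 56.5, 48.0, 44.2 and 50.7 CPM in Apc and 25.9, 24.0, 29.2 and 20.7 CPM in P-Rspo3. Its Apc libraries lay far above both other groups (0.95 ± 0.12, adjusted p = 6.02e-05), which overlapped each other. Foxm1, which acts after it in the same programme, was at 62.1, 58.2, 47.6, 69.7 and 53.4 CPM in WT, 102, 87.8, 76.6 and 78.3 CPM in Apc and 76.7, 67.3, 58.6 and 54.5 CPM in P-Rspo3. The lowest Apc library, replicate 5, was above the highest WT library, replicate 6, by less than the spread within either group (0.55 ± 0.12, adjusted p = 0.00222).

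Of the 4 chromosomal passenger proteins, which correct chromosome attachments and mark the cleavage site, Aurkb (the kinase), Incenp (the scaffold) and Cdca8 (borealin) rose and Birc5 (survivin) did not pass. Incenp was at 106, 94.1, 87.9, 109 and 104 CPM in WT, 172, 158, 151 and 144 CPM in Apc and 113, 101, 109 and 92.8 CPM in P-Rspo3 (0.62 ± 0.08, adjusted p = 5.31e-05). Birc5 was at 78.9, 62.5, 65.0, 73.4 and 71.0 CPM in WT, 87.0, 70.1, 71.9 and 69.8 CPM in Apc and 82.7, 78.5, 89.8 and 67.2 CPM in P-Rspo3. The Birc5 groups overlapped, with Apc replicate 1 apart from the other Apc libraries, and the change was 0.07 ± 0.09, adjusted p = 0.532, whereas under total count scaling it was 0.36 and passed (adjusted p = 0.00486). Birc5 spans chr11:117849251-117855743 on the plus strand of GRCm38.

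All 10 kinetochore and checkpoint genes rose, with a median of 0.72. Cenpf, a large protein of the outer kinetochore encoded at chr1:189640606-189688086 (minus strand), followed Ect2 in the size of its change in counts (1.15 ± 0.12, adjusted p = 9.75e-06), whereas with limma on log2(FPKM + 0.1) its change was 1.01 and 11 of the 40 genes changed more. It was at 73.4, 96.6, 76.3, 111 and 82.1 CPM in WT, 203, 204, 199 and 185 CPM in Apc and 142, 109, 107 and 91.1 CPM in P-Rspo3. Each Apc library thus exceeded WT replicate 6, the highest WT library, and P-Rspo3 replicate 15d, the highest P-Rspo3 library. Bub1 (0.88 ± 0.08, adjusted p = 6.59e-06), a checkpoint kinase, Cenpe (0.84 ± 0.10, adjusted p = 3.13e-05), Ndc80 (0.81 ± 0.10, adjusted p = 3.52e-05), which binds the microtubule, and Mad2l1 (0.78 ± 0.10, adjusted p = 7.42e-05), the checkpoint protein that restrains Cdc20, followed. Cenpa, the histone variant that marks centromeres, Spc25, Ttk and Bub1b rose by 0.41 to 0.65. Nuf2, the partner of Ndc80, rose least (0.30 ± 0.09, adjusted p = 0.0128), with 34.3, 33.1, 31.2, 39.8 and 35.9 CPM in WT, 48.0, 44.4, 43.0 and 38.5 CPM in Apc and 48.0, 40.3, 47.4 and 35.2 CPM in P-Rspo3. The Nuf2 groups overlapped, and in the fit that took line number as a replicate block and left out the dox-naive library its adjusted p was 0.0518.

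The 7 spindle motors and microtubule proteins all rose, with a median of 0.60. Tpx2, which activates Aurora A and nucleates spindle microtubules, changed most (0.87 ± 0.08, adjusted p = 5.4e-06). It was at 84.8, 80.5, 69.9, 92.5 and 77.5 CPM in WT, 161, 154, 144 and 143 CPM in Apc and 105, 90.6, 96.3 and 72.7 CPM in P-Rspo3. Apc and the other groups did not overlap for it. Kif11, the motor that pushes the spindle poles apart, changed least (0.39 ± 0.10, adjusted p = 0.00617), with 136, 138, 126, 171 and 126 CPM in WT, 204, 194, 177 and 166 CPM in Apc and 179, 152, 158 and 132 CPM in P-Rspo3. Its WT replicate 6 lay above the lowest Apc library. Prc1, Kif2c, Hmmr, Kif4 and Nusap1 lay between, at 0.45 to 0.67.

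All 4 cytokinesis genes rose, and their median of 0.89 was the highest of the 8 groups. Ect2, the exchange factor that activates RhoA to form the contractile ring, is encoded at chr3:27097222-27153878 on the minus strand and changed more than any other of the 40 genes. It was at 99.9, 109.8, 86.2, 127 and 85.6 CPM in WT, 349.7, 300.1, 248 and 246 CPM in Apc and 119, 107, 104 and 92.0 CPM in P-Rspo3. The lowest Apc library (246 CPM) was far above the highest library of the other groups (WT replicate 6, 127 CPM), and the change was 1.47 ± 0.14, adjusted p = 7.42e-06. Kif20a (0.96 ± 0.10, adjusted p = 1.55e-05), a motor of the central spindle, and Anln (0.82 ± 0.11, adjusted p = 8.04e-05), an actin-binding ring protein, followed. Kif23, the motor of the centralspindlin complex, changed least of the group (0.66 ± 0.10, adjusted p = 0.000185), with 80.5, 87.0, 74.9, 92.6 and 82.3 CPM in WT, 162, 133, 117 and 122 CPM in Apc and 117, 116, 114 and 81.2 CPM in P-Rspo3. Apc lay above WT throughout, while P-Rspo3 replicates 15d, 4d and M lay above WT and just below the lowest Apc library.

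In the anaphase group, Cdc20, which activates the anaphase-promoting complex, was at 90.0, 82.9, 64.2, 94.7 and 81.7 CPM in WT, 189, 155, 156 and 129 CPM in Apc and 92.1, 90.3, 92.7 and 76.1 CPM in P-Rspo3. Its Apc libraries were above all others (0.91 ± 0.12, adjusted p = 9.73e-05), although they were spread widely, with replicate 1 the highest and replicate 6 the lowest. Espl1 (0.61 ± 0.09, adjusted p = 0.000124) and Ube2c (0.37 ± 0.10, adjusted p = 0.00725) also rose. Pttg1 encodes securin, the inhibitor that holds separase until anaphase, and its estimate was lower in Apc than in WT (-0.37 ± 0.15, adjusted p = 0.0532). Its values are given with the comparison of the mutant groups.

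The 2 general markers rose. Mki67, the antigen used to stain cycling cells, was at 469, 552, 479, 672 and 495 CPM in WT, 894, 775, 764 and 744 CPM in Apc and 773, 672, 599.5 and 562 CPM in P-Rspo3. Every Apc library was above WT (0.55 ± 0.11, adjusted p = 0.00161), and P-Rspo3 replicate 15d overlapped Apc. Top2a was at 436, 499, 418, 555 and 429 CPM in WT, 829.7, 865, 767 and 755 CPM in Apc and 622, 517, 527 and 436 CPM in P-Rspo3. Here the Apc libraries were separate from both other groups (0.76 ± 0.10, adjusted p = 5.46e-05).

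**Figure D2:**
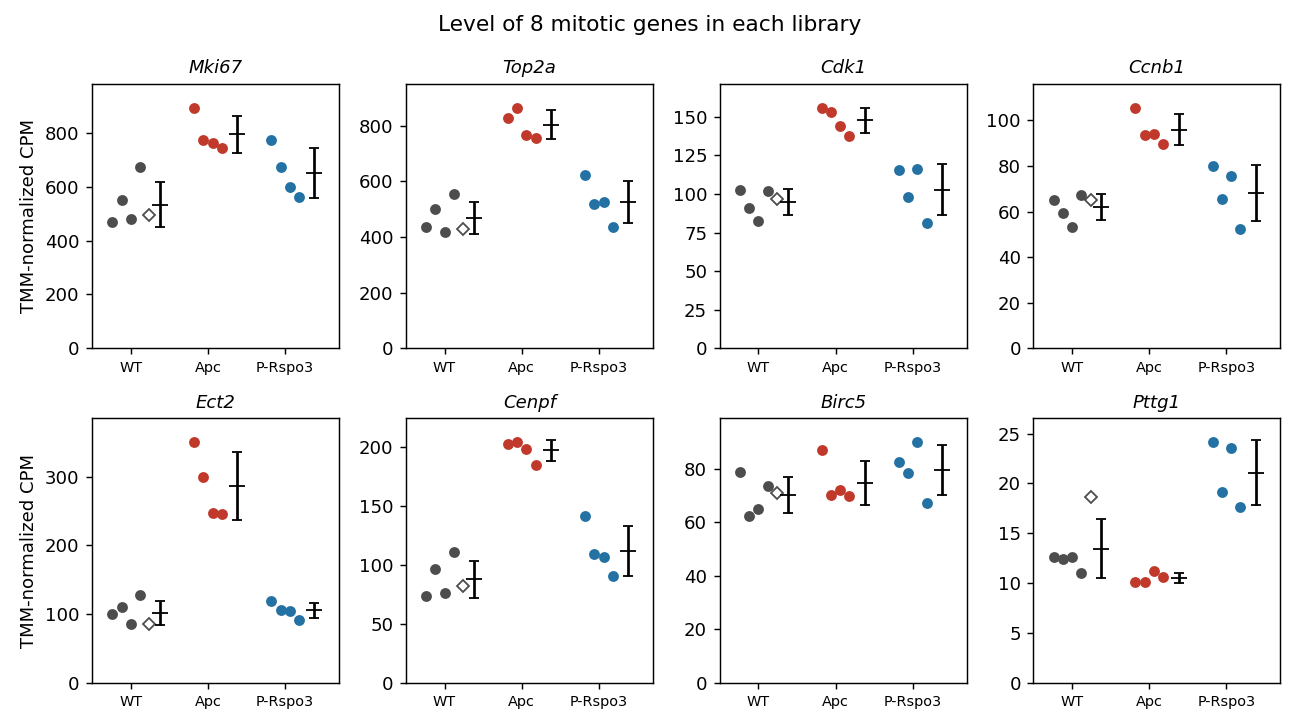
TMM-normalized CPM of 8 genes in each library (points, linear axes from 0), with the mean ± SD of each group beside them and the dox-naive WT library as an open diamond. Ect2 and Cenpf are separate in Apc, Birc5 overlaps in all 3 groups, and Pttg1 in the dox-naive library (18.6 CPM) lies with P-Rspo3.

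Compared within each numbered line, 36 of the 40 genes were higher in the Apc library than in the WT library in 4 of 4 lines, against 33.6% of the 16749 genes tested. The median log2 ratio was 0.71 in line 1, 0.65 in line 2, 0.70 in line 5 and 0.33 in line 6. In line 6, where the ratio was smallest, the WT library was the highest of the WT group for these genes (median 0.18 above the WT mean) and the Apc library the lowest of the Apc group (0.52 above it). Ect2 had the largest ratio in each line, at 1.81, 1.45, 1.52 and 0.95.

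Most markers of differentiated cells fell in Apc, where most of the mitotic genes rose. All 10 enterocyte markers fell, against 29.0% of all genes, and their sum was 21130 to 37420 CPM in WT and 447 to 519 CPM in Apc. Goblet cell markers fell in 7 of 7, enteroendocrine markers in 6 of 7, Paneth cell markers in 4 of 5 and tuft cell markers in 3 of 4. The fifth Paneth cell marker, the protease gene Mmp7, rose (1.74 ± 0.26, adjusted p = 0.000181). Of the 6 intestinal stem cell markers 4 rose, against 30.0% of all genes, 1 fell, against 29.0%, and 1 did not pass. The sum of these 6 markers was 1091 to 1707 CPM in Apc and 1424 to 3059 CPM in WT. Lgr5 (1.45 ± 0.19, adjusted p = 6.5e-05) and Ascl2 (1.54 ± 0.17, adjusted p = 2.04e-05) rose, whereas Olfm4 fell from 1540 ± 574 CPM to 1.78 ± 1.51 CPM (SD). Whether the rise of the mitotic genes reflects a changed mix of cells was not tested.

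Promoter windows were searched for sequence features. The genes were chosen by function and not by sequence, but the cell-cycle genes homology region is named after genes of such function. The share of windows that hold it is thus no independent test. RefSeq promoter windows of GRCm38.p6, running from 250 bases before to 50 bases after the start, were held for 33 of the 40 genes. They were searched on both strands for the NF-Y box CCAAT, for the cell-cycle genes homology region (CHR) TTTGAA and its second form TTTAAA, and for the E2F forms TTTCGCGC, TTTGGCGC and TTTCCCGC. CCAAT was in the windows of 24 of 33 genes (72.7%), against 41.1% of all 27018 genes with a window, and TTTGAA in 24 of 33 (72.7%), against 20.2%. Both were present in 21 of 33 (63.6%), against 8.97% of all genes. The DNA replication genes held CCAAT in 18 and TTTGAA in 4 of 30 genes, while an E2F form was in 12 of those 30, in 3.03% of the mitotic genes and in 2.12% of all genes. These shares describe letters in windows, and binding was not measured. The windows of Ect2 and Cenpf, the genes beyond the fold threshold, of Cdc20 and of Birc5, which did not pass, are shown with CCAAT and TTTGAA, or their reverse complements ATTGG and TTCAAA, in capitals. The Birc5 window held neither, though it held TTTAAA once. Of the 33 genes, 6 lacked both, and 4 of these, Mybl2, Mad2l1, Nusap1 and Nuf2, rose in Apc, the others being Birc5 and Pttg1.
Ect2, chr3:27153829-27154128, minus strand: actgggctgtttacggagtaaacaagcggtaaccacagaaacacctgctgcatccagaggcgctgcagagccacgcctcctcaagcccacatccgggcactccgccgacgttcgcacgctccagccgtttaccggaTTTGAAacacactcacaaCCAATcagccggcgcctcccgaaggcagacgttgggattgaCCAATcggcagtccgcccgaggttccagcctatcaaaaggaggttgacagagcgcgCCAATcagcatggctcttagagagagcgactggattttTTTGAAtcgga
Cenpf, chr1:189688037-189688336, minus strand: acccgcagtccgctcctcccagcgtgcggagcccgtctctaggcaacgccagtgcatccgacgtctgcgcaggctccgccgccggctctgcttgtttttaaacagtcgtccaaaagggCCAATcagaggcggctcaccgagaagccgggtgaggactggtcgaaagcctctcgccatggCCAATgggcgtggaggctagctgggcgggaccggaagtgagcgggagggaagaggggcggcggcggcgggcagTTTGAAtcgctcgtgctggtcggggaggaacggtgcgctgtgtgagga
Cdc20, chr4:118437294-118437593, minus strand: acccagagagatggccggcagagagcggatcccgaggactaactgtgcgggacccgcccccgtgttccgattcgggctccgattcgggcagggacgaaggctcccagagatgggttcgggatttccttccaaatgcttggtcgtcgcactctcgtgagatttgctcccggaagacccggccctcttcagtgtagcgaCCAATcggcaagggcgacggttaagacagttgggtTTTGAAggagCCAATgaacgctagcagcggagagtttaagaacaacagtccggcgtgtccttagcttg
Birc5, chr11:117848987-117849286, plus strand: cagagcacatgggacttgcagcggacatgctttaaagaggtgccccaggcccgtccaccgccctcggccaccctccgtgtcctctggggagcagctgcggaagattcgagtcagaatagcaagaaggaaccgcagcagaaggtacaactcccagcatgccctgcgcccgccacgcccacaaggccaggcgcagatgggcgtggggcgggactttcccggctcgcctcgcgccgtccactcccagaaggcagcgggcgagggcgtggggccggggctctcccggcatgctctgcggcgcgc

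**Figure D3:**
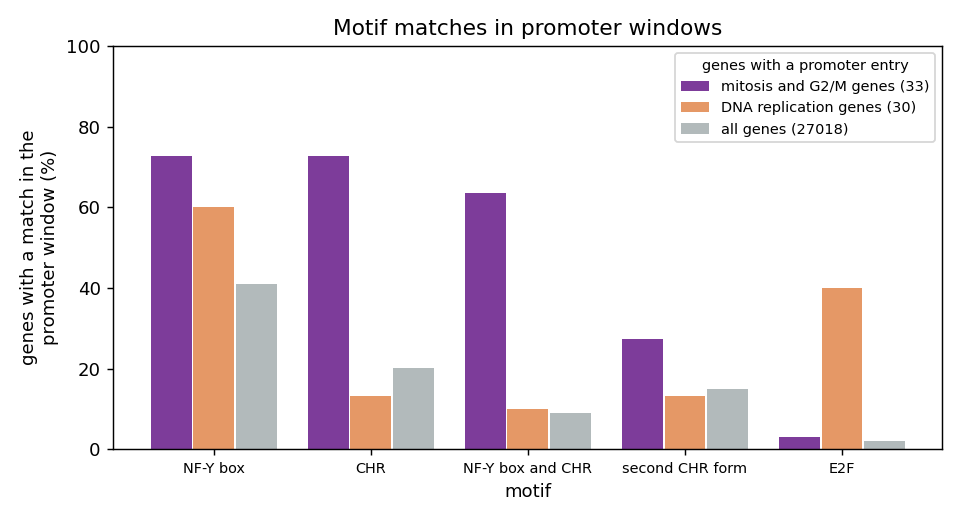
Percentage of genes with a match to each motif in the promoter window (bars from 0) for the mitosis and G2/M genes (33 genes with a window), the DNA replication genes (30) and all genes (27018). The CHR is matched in 72.7% of the mitotic genes and 4 of 30 replication genes, and E2F forms in 3.03% and 12 of 30.

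In P-Rspo3 organoids the mitotic genes were close to WT. None of the 40 passed in edgeR's test, against 0.00625% of the 15992 genes tested (1 gene, Rspo3) for rises and 0.0% for falls. At an unadjusted p under 0.05 there were 7 of 40, against 13.5% of all genes, which is near the background. DESeq2 called 1 of the 40 higher, Pttg1, against 1.28% of all genes. No gene of the 40 had each P-Rspo3 library above each WT library, against 2.54% of all genes. The estimates leaned upwards, with 37 of 40 above 0 against 50.9% of all genes, and a median log2 fold change of 0.16 (1.12-fold) against 0.00. This lean differed between libraries. Relative to the WT mean the members' median was 0.36 in replicate 15d, 0.16 in 4d, 0.22 in M and −0.11 in F, while WT libraries ranged from −0.18 to 0.18. Marker levels are set beside it. The sum of the enterocyte markers was 14950, 17510 and 14870 CPM in replicates 15d, 4d and M and 35220 CPM in F, and in WT it was highest in replicate 5 (37420 CPM), where the mitotic median was −0.18, and lowest in replicate 6 (21130 CPM), where it was 0.18. All 10 enterocyte markers had estimates below 0 in P-Rspo3 against WT (median −0.49), of which 0 passed in edgeR's test and 4 had an unadjusted p under 0.05. The stem cell markers also had 6 of 6 estimates below 0 (median −0.33), the enteroendocrine markers 7 of 7 (median −0.28) and the tuft cell markers 4 of 4 (median −0.50), while 6 of 7 goblet cell markers were above 0 (median 0.17), and 0 of these passed, with 1, 0, 1 and 1 at an unadjusted p under 0.05. Fibroblast markers, as given above, summed highest in replicate 15d, through Pdgfrb. The part of these cell types in the lean was not tested. Without replicate F the median change was 0.25 and without replicate 15d it was 0.09.

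After Pttg1 (0.65 ± 0.17, adjusted p = 0.145), the estimates furthest above 0 were those of Kif23 (0.36 ± 0.11, adjusted p = 0.215) and Cenpf (0.35 ± 0.15, adjusted p = 0.347). The direction of Cenpf depended on the measure: with limma on log2(FPKM + 1) it was −0.11 (adjusted p = 0.825) and on log2(FPKM + 0.1) −0.12. Over all alternatives, 11 of the 40 estimates changed sign at least once in P-Rspo3 against WT, against 1 of 40 in Apc against WT. Cdk1 (0.11 ± 0.11, adjusted p = 0.698), Ccnb1 (0.14 ± 0.12, adjusted p = 0.657) and Top2a (0.17 ± 0.12, adjusted p = 0.585) were within about 1 standard error of the members' median. The standard errors, at 0.09 to 0.18, are about as large as the median estimate, and whether changes of that size could be detected with these cultures was not tested.

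**Figure D4:**
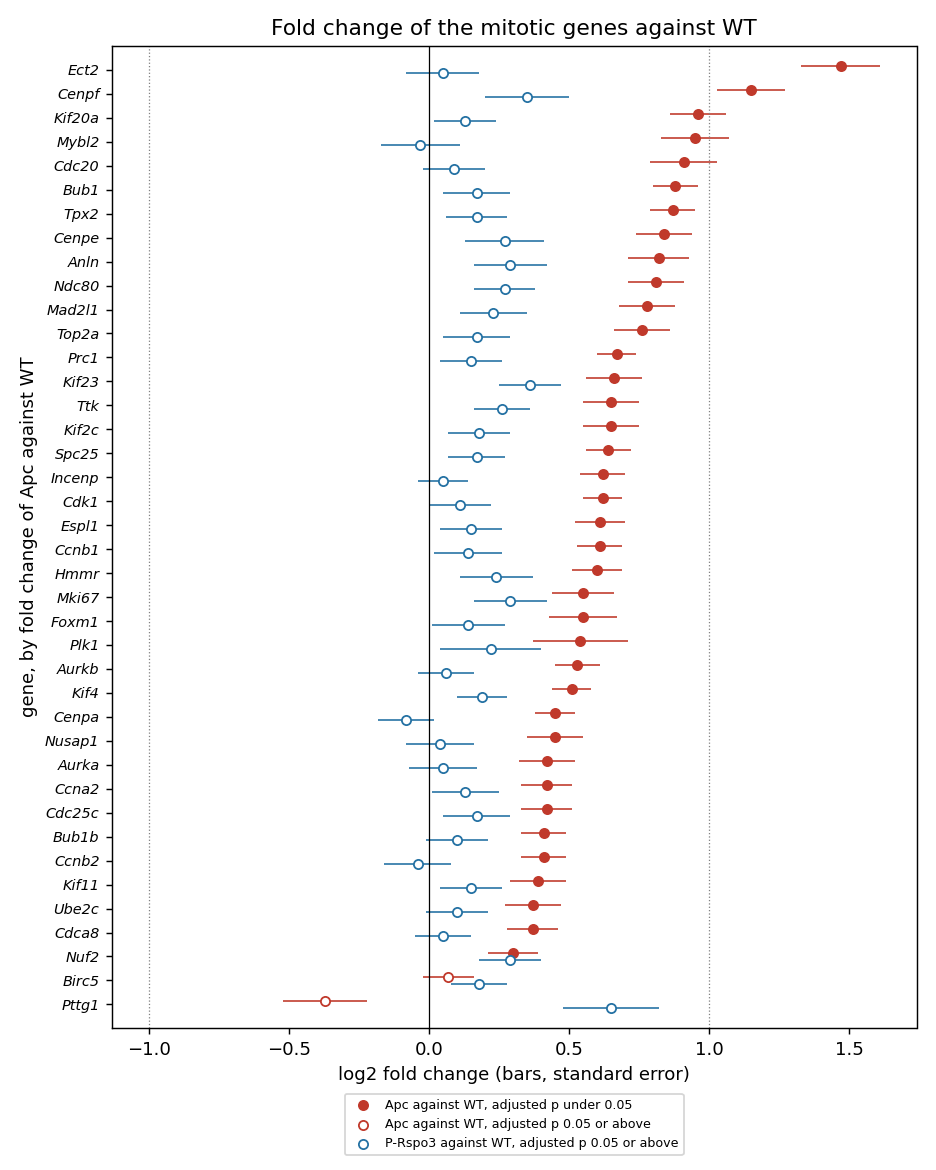
Log2 fold change against WT of each of the 40 genes in Apc (red) and P-Rspo3 (blue), with standard errors; filled points have an adjusted p under 0.05, and dotted lines mark a log2 fold change of 1 in either direction. The 38 filled points are all in Apc, between 0.30 (Nuf2) and 1.47 (Ect2), and both sets of values share the same WT libraries.

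Set directly against each other, both grown without RSPO1, Apc and P-Rspo3 differed in most of the 40 genes. In Apc, 31 were higher than in P-Rspo3, against 28.7% of the 16456 genes tested, and 1 was lower, against 27.7%. The median difference was 0.48 (log2), against 0.00. Beyond a log2 difference of 1 there was 1 gene on each side, Ect2 higher (1.43 ± 0.13, adjusted p = 1.72e-05) and Pttg1 lower (-1.01 ± 0.12, adjusted p = 0.000108), against 13.4% and 13.3% of all genes. Pttg1 lay at the threshold: its difference was −0.93 without P-Rspo3 replicate 15d, −0.88 with the conflicting libraries by genotype and −0.76 under total counts. In these fits it passed the adjusted p but not the fold threshold. The fold call was also lost without Apc replicate 1 or 2 or P-Rspo3 replicate M. Each Apc library was above each P-Rspo3 library for 30 genes, against 27.7% of all genes, and below for Pttg1, against 26.2%. The 8 genes that did not pass were Ccna2, Cdc25c, Plk1, Birc5, Nuf2, Kif11, Kif23 and Mki67. For Mki67 the difference was 0.28 ± 0.11, adjusted p = 0.0591, and for Nuf2 0.02 ± 0.11, adjusted p = 0.91, and Mki67 passed with DESeq2 (adjusted p = 0.0301) and without P-Rspo3 replicate 15d (0.38, adjusted p = 0.0144). Mki67 also passed with the conflicting libraries by genotype (0.28, adjusted p = 0.0401). Under total counts its difference was larger (0.53, adjusted p = 0.00555), as with limma on log2(FPKM + 1) (0.53, adjusted p = 0.0039) and on log2(FPKM + 0.1) (0.54, adjusted p = 0.00375). Depending on the library left out, 26 to 34 genes were higher. Both groups also come from different lines, so line and genotype cannot be told apart.

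Pttg1, at chr11:43420250-43426251 on the minus strand, was the only gene of the 40 with an estimate below 0 in Apc against WT. It was at 12.7, 12.4, 12.6, 11.0 and 18.6 CPM in WT, 10.1, 10.2, 11.2 and 10.7 CPM in Apc and 24.1, 19.1, 23.6 and 17.6 CPM in P-Rspo3. The 8 libraries of the flox lines, WT and Apc alike, were at 10.1 to 12.7 CPM, and the dox-naive WT library and the P-Rspo3 libraries, which come from other lines, were at 17.6 to 24.1 CPM. With WT of the flox lines alone, the change in Apc was −0.23 (adjusted p = 0.0842), against −0.37 with all 5 WT libraries. Without the dox-naive library, the change in P-Rspo3 was 0.80 (adjusted p = 0.0122), against 0.65 with it, and with line origin as a term it was 0.18 ± 0.20 (adjusted p = 1). The latter rests on a single dox-naive library. The ungrouped library titled NAIVE_F, with a Ptprk-Rspo3 genotype, was at 12.5 CPM, within the range of the flox lines, and the ungrouped library titled LIPO, with a dox-naive genotype, was at 20.8 CPM. With both assigned by genotype, the change in P-Rspo3 was 0.40 (adjusted p = 0.414) and that in Apc −0.50 (adjusted p = 0.032).

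Wider lists of mitotic genes are set here beside the 40, and their counts in Apc are to be read against the 30.0% of all genes that rose and the 29.0% that fell. Of 26 further kinetochore genes, 21 rose and 0 fell (median 0.51), among them Cenpt (0.93 ± 0.10, adjusted p = 1.57e-05), which links centromeric chromatin to the outer kinetochore, and Cenph, Kntc1 and Cenpn at 0.80 to 0.87. Of 21 further spindle, centrosome and cytokinesis genes, 20 rose and 0 fell (median 0.62). Ckap2, a microtubule-associated protein, rose from 40.9 ± 4.51 CPM to 109.9 ± 15.1 CPM (1.40 ± 0.10, adjusted p = 1.19e-06), and Cep55, an abscission protein, from 32.9 ± 1.83 CPM to 80.2 ± 13.7 CPM (1.26 ± 0.10, adjusted p = 2.22e-06). Aspm (1.21 ± 0.12, adjusted p = 8.82e-06) and the motor Kifc1 (1.03 ± 0.09, adjusted p = 3.01e-06) followed.

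Of 18 condensin and cohesin genes, 14 rose, led by the condensin subunits Ncapg2 (0.94 ± 0.11, adjusted p = 3.17e-05), Ncaph and Smc2 and by Sgo2a, a shugoshin that protects centromeric cohesin. Wapl, which releases cohesin from DNA, was the 1 that fell (log2 fold change −0.46). Of 17 subunits and regulators of the anaphase-promoting complex, 11 rose and 0 fell, with a median of 0.24. Fbxo5, an inhibitor of that complex, had the largest change among them (0.73 ± 0.10, adjusted p = 9.13e-05), followed by the subunits Cdc23, Anapc4 and Cdc27 at 0.58 to 0.68. Of 12 further G2/M kinases and phosphatase regulators, 7 rose and 1 fell. Cks1b, a small Cdk-binding protein, was at 28.3 ± 4.28 CPM in WT and 59.3 ± 6.14 CPM in Apc (1.05 ± 0.12, adjusted p = 2.04e-05), and Mastl, the kinase that restrains the opposing phosphatase, and Melk and Arpp19 rose as well, whereas Ensa, the relative of Arpp19, fell (−0.46). In P-Rspo3, 0 of the 94 genes of these 5 lists passed in edgeR's test in either direction, with a median of 0.10, and 17 were at an unadjusted p under 0.05, against 13.5% of all genes.

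The subunits of the DREAM and MuvB complexes, which repress or activate the late cell cycle genes, had counts near the background for rises. Of 12, 4 rose (30.0% of all genes), 1 fell (29.0% of all genes) and 7 did not pass, and their median was 0.06. The difference from the mitotic lists was not tested. Mybl1, a relative of Mybl2, changed most (1.63 ± 0.16, adjusted p = 9.26e-06), at 4.34 ± 0.751 CPM in WT, 13.7 ± 2.2 CPM in Apc and 7.16 ± 1.20 CPM in P-Rspo3, followed by Lin9, Tfdp1 and Rbbp4 at 0.57 to 0.67. Lin54 fell (−0.26). Of 11 genes that brake the cycle, 5 were higher and 3 lower in Apc, against 30.0% and 29.0% of all genes. Cdkn2a, which encodes an inhibitor of Cdk4 and Cdk6 and an activator of p53, rose from at most 9 counts in any WT library to 11.8 ± 2.26 CPM, Cdkn1c (1.77 ± 0.19, adjusted p = 1.55e-05) and Ccng1 (1.43 ± 0.12, adjusted p = 2.15e-06) rose, and Cdkn2b fell from 49.6 ± 13.6 CPM to 7.84 ± 1.51 CPM (-2.68 ± 0.24, adjusted p = 3.82e-06). Cdkn1a and Gadd45a also fell. Cdkn2a and Cdkn2b are neighbours on the chromosome and moved in opposite directions.

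The DNA replication genes, which act a phase earlier, were set beside the mitotic genes. Of 38 tested, 33 rose in Apc and 0 fell, against 30.0% and 29.0% of all genes, with a median of 0.69, close to the 0.61 of the mitotic genes. Cdc6 (1.12 ± 0.09, adjusted p = 2.83e-06), which loads the replicative helicase, and its subunits Mcm4 (1.04 ± 0.09, adjusted p = 4.44e-06) and Mcm2 (1.01 ± 0.11, adjusted p = 1.52e-05) changed most, followed by Gins1 (0.99 ± 0.13, adjusted p = 9.31e-05). In P-Rspo3 their median was 0.00, with 20 of 38 estimates above 0, against 37 of 40 for the mitotic genes, and 0 passed. By library, the mitotic median exceeded the replication median by 0.34 in P-Rspo3 replicate 15d, 0.21 in 4d, 0.09 in M and 0.03 in F. In WT that difference ranged from −0.10 to 0.09, and in Apc from −0.23 to −0.02. P-Rspo3 replicates 15d and 4d thus lay above the WT range and replicates M and F within or at its edge.

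**Figure D5:**
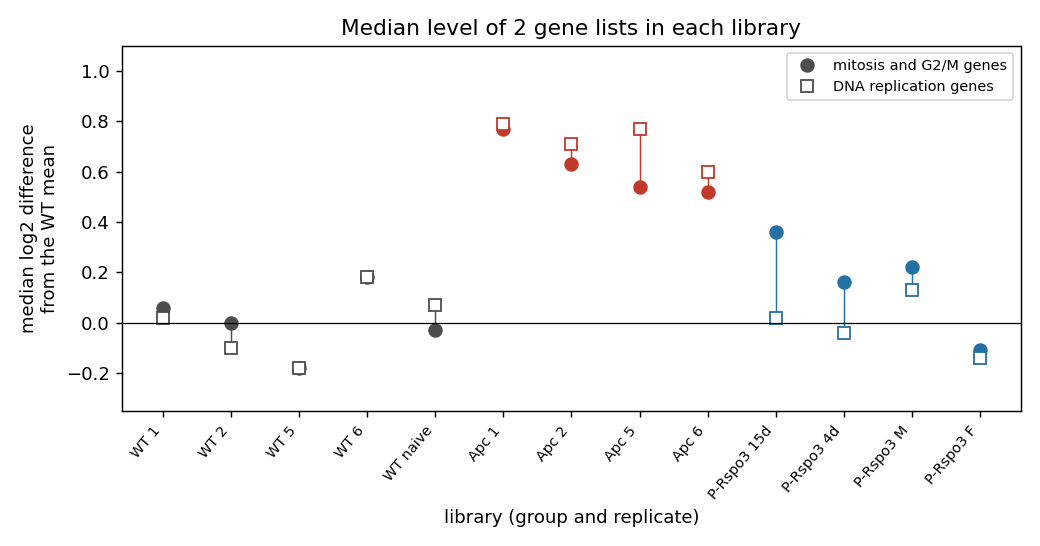
Median log2 difference from the WT mean of the 40 mitosis and G2/M genes (filled circles) and of the DNA replication genes (open squares) in each of the 13 libraries. Both medians are 0.52 or higher in all 4 Apc libraries, and in P-Rspo3 replicate 15d the circle (0.36) lies well above the square (0.02).

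Annotated exons of 12 of the 40 genes overlap those of another gene in the GENCODE annotation of GRCm38, and the strand setting of the counting is not given in the sources used here. Reads in the overlap cannot then be told apart. The overlapping genes with the highest WT levels were Elovl1 beside Cdc20 (107 CPM), Cdc23 beside Kif20a (39.1 CPM) and Exosc9 beside Ccna2 (34.5 CPM). Elovl1 was at 88.8 CPM and Cdc23 at 63.5 CPM in Apc.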

How the data were processed

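RNA was sequenced from 15 organoid libraries, of which 13 were grouped by their labels. Reads had been aligned to GRCm38 with STAR. The authors deposited raw counts per gene (HTSeq 0.6.0) and FPKM (Cufflinks 2.2.1). Annotation release and strand setting are not given in the sources used here. GENCODE of GRCm38 gave symbols and coordinates.

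Counts were fitted with edgeR 4.0.16 (R 4.3.3; TMM, glmQLFit, glmQLFTest), 1 fit per pair of groups. A gene was tested if its FPKM reached 0.1 in a number of libraries equal to the size of the smaller group. A gene passed at an adjusted p under 0.05 over all genes tested, and the fold threshold was an absolute log2 fold change above 1. Scripts were tested on simulated data.

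The 40 genes and the other lists were chosen with earlier results of these data known. Per-library values are given for Mki67, Top2a, Cdk1, Ccnb1 and, in each role group, the genes with the largest and the smallest fold change in Apc, and other lists are named by up to 4 genes with the largest change. Genes named as falling in a list, and those named in other ways, were chosen after their values were seen. Alternatives were DESeq2 1.42.0 and its size factors, total counts, limma 3.58.1 on log2(FPKM + 1) and log2(FPKM + 0.1), other filters, other assignments of libraries and leaving libraries out. Line origin as a term was added after the data were seen. Same-numbered WT and Apc libraries carry the same line number in their titles. Their deviations from the group means correlated at −0.00418 to 0.222 over 4 pairs (median 0.11). The 12 other pairs ran from −0.178 to 0.160 (median −0.0422), so the ranges overlapped. Promoter sequences are from RefSeq. The fusion junction was not analysed here.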

Additional observations from a re-analysis of the deposited data

Results flagged for a closer look

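In 7 of 120 groups of 4 or 5 libraries (40 genes in 3 groups), 1 library lay further from the rest than Dixon's 95% limit allows, where chance gives about 1 in 20. P-Rspo3 replicate F was low for 3 genes: Kif23 had 81.2 CPM against 114 to 117 CPM in the other P-Rspo3 libraries, Cdc20 had 76.1 against 90.3 to 92.7 CPM, and Cenpa had 44.7 against 57.3 to 59.6 CPM. Apc replicate 1 was high for Birc5, with 87.0 CPM against 69.8 to 71.9 CPM in the other Apc libraries, and for Hmmr, with 100.7 against 83.3 to 85.8 CPM. WT replicate 6 was high for Kif11, with 171 CPM against 126 to 138 CPM in the other WT libraries. The dox-naive WT library was high for Pttg1, with 18.6 CPM against 10.98 to 12.7 CPM in WT of the flox lines.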

How the results depend on the processing

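Of the 38 genes that rose in Apc against WT, 37 to 38 passed whichever library was left out, and each kept its direction under every alternative run. With line number as a replicate block, in a fit without the dox-naive library, the adjusted p of Nuf2 was 0.0518. In that fit 37 genes passed, 3 exceeded the fold threshold and the median was 0.62. The same libraries without the block gave 38, 2 and 0.61. At the adjusted p threshold the block changed no other call. The sizes moved with the scaling and the measure. Total counts changed the scaling alone, while the limma fits on FPKM also changed the measure and the model. The median of all genes was 0.29 under total counts, 0.17 under limma on log2(FPKM + 1) and 0.28 on log2(FPKM + 0.1), and the members' median was then 0.90, 0.84 and 0.89, with 12, 8 and 12 members beyond the fold threshold. Pttg1 passed as 1 lower gene in Apc with DESeq2, the newer quasi-likelihood form, filterByExpr, the conflicting libraries assigned by genotype and without WT replicate 6 (0 to 1 over libraries left out). Birc5 was at −0.01 without Apc replicate 1 and at up to 0.11 without another library. In P-Rspo3 against WT, 1 gene (Pttg1) passed with DESeq2 and without the dox-naive library (0 to 1), and over all genes DESeq2 called 204 higher and 304 lower and the fit without the dox-naive library 232 and 153, against 1 and 0. Cenpf was −0.11 and −0.12 there under the limma fits, against 0.35. In Apc against P-Rspo3, total counts and both limma fits gave medians of 0.73, 0.71 and 0.74, with 5 genes beyond the fold threshold above and 0 below, and Birc5 at 0.16, 0.17 and 0.17 against −0.10. Nuf2 there was −0.03 without Apc replicate 1, −0.01 without P-Rspo3 replicate 4d and −0.07 without replicate F (−0.07 to 0.08 over libraries left out), against 0.02. With the conflicting libraries by genotype, 2 were beyond it above and 0 below, and over libraries left out 1 to 2 above and 0 to 1 below. The cause of these shifts was not tested. Hmmr and Ube2c lost significance in 6 of the 8 fits with a library left out each. The lowest count of a member in a grouped library was 333.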

Other observations

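The 2 libraries in no group are titled LIPO, with a dox-naive genotype and ENR media, and NAIVE_F, with a Ptprk-Rspo3 genotype and EN media. Rspo3 had 0 counts in LIPO and 729 counts (28.2 CPM) in NAIVE_F. Relative to the WT mean, the median of the 40 mitotic genes was −0.03 in LIPO and 0.18 in NAIVE_F (log2), and that of the DNA replication genes was −0.09 and 0.04. Pttg1 was at 20.8 CPM in LIPO and 12.5 CPM in NAIVE_F. Mki67 was at 513 and 669 CPM, Cdk1 at 93.5 and 107 CPM, and Ect2 at 86.7 and 106 CPM.

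Across the 40 genes, the log2 FPKM in WT and the log2 fold change in Apc had a Pearson correlation of −0.22 (40 genes of the same libraries, which are not independent replicates).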
